A study of Mus musculus with 14 samples.

Results

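The expression of 10 genes of regulatory T cells and T cell costimulation was described in CT26 tumors under anti-PD-1 treatment: Foxp3, Il2ra, Ikzf2, Ccr8, Tnfrsf4, Tnfrsf9, Tnfrsf18, Icos, Cd28, and Il10. The genes were chosen by name, and each was matched by its Ensembl identifier, so they were 10 of the 53801 genes with values in every tumor. All 10 also had enough counts to be among the 16287 genes tested. The data were bulk RNA-seq of 14 tumors from 11 mice. CT26 is a colon carcinoma line of Balb/c origin, and barcoded cells of the line were placed under the skin of both flanks of female Balb/c mice aged 6 to 8 weeks. From day 7 the mice were given 200 μg of control IgG or anti-PD-1, an antibody that blocks the inhibitory receptor PD-1 on T cells, every 3 days for 5 doses, and tumors were collected 3 days after dosing ended. There were 3 groups, namely control IgG (5 tumors of 4 mice), anti-PD-1 responders (5 tumors of 4 mice), and anti-PD-1 non-responders (4 tumors of 3 mice). Responders and non-responders had the same treatment and differ in how the tumor grew under it. The paper assigned them by tumor size at the end of treatment, relative to the median of control IgG tumors, with tumors of intermediate size in neither group. Responder tumors were thus the smaller ones by definition, and response and tumor size cannot be told apart here. All 14 tumors came from the same barcoded line in mice without an engineered allele, and the mice kept their own immune cells. In 3 mice both flanks were sequenced, as read from the tumor numbers: 14L with 14R (control IgG), 30L with 30R (responders), and 33L with 33R (non-responders).

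Regulatory T cells are CD4 T cells that restrain other lymphocytes, and the transcription factor Foxp3 defines the lineage. They carry the high-affinity IL-2 receptor chain Il2ra, and in tumors many of them also carry the chemokine receptor Ccr8. Costimulatory receptors give T cells a further signal beside the antigen receptor: Cd28 and Icos belong to the immunoglobulin family and act through PI3-kinase, while Tnfrsf4 (OX40), Tnfrsf9 (CD137), and Tnfrsf18 (GITR) belong to the TNF receptor family and act through TRAF adaptors and NF-kB. Most of these receptors are shared between regulatory T cells and activated conventional or CD8 T cells, and Foxp3 is the member most specific to regulatory T cells.

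The members lie on 5 chromosomes of mm10 (GRCm38), with positions and names from GENCODE vM21. Foxp3 is on chromosome X (7573644 to 7595245), Il2ra on chromosome 2 (11642807 to 11693193), and Ccr8 on chromosome 9 (120092114 to 120094906). On chromosome 4, Tnfrsf4 (156013843 to 156016612) is followed by Tnfrsf18 (156026164 to 156028895) after a gap of 9551 bases that holds no other coding gene. Tnfrsf9 (150914562 to 150946102) is on the same chromosome, 5067740 bases before Tnfrsf4. On chromosome 1, Cd28 (60716800 to 60773359) and Icos (60977927 to 61000320) are 204567 bases apart with Ctla4 as the only coding gene between them. Ikzf2 (69531214 to 69687245) and Il10 (131019845 to 131024974) are farther along the same chromosome. The counts cover the annotated exons of each gene. Foxp3 shares 590 of its 4577 annotated exon bases with Ccdc22 and 266 with Ppp1r3f, coding genes on the opposite strand, and the library is not stated to keep strand. It also shares 853 exon bases with the non-coding gene Flicr on its own strand and 373 with the non-coding gene Gm36995 on the opposite strand. How RSEM divided the reads of these bases among the genes was not tested. Ccdc22 was at 29.9 CPM in the control IgG group, 34.6 in the responder group, and 33.0 in the non-responder group (counts scaled to a common library size, group means), and Flicr at 0.252 to 0.319 CPM.

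Promoter sequences from RefSeq (build GRCm38.p6, 250 bases before to 50 after a transcript's start) were available for 6 of the 10 members: Foxp3 and Tnfrsf9 with a pair of starts each, and Il2ra, Tnfrsf4, Tnfrsf18, and Ccr8 with 1. Shown here are both starts of Foxp3, the member with the largest called difference, the neighbours Tnfrsf4 and Tnfrsf18, and the start of Tnfrsf9 that holds the most matches, since Tnfrsf9 alone of the 10 had a log2 fold change under 0 between responders and non-responders. The windows of Foxp3 and Tnfrsf9 lie inside the span that GENCODE gives the gene. All are on the plus strand, and capitals mark the letters searched on both strands for NF-kB (GGGNNNNNCC), AP-1 (TGANTCA), STAT (TTCNNNGAA), and RUNX (TGTGGT).
Foxp3, chrX:7579426-7579725: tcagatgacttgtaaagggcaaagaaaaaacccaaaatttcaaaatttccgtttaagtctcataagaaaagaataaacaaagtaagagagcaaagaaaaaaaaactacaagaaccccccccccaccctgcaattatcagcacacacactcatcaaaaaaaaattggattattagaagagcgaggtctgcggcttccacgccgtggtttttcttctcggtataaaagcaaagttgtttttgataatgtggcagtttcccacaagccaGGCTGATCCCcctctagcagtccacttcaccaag
Foxp3, chrX:7580233-7580532: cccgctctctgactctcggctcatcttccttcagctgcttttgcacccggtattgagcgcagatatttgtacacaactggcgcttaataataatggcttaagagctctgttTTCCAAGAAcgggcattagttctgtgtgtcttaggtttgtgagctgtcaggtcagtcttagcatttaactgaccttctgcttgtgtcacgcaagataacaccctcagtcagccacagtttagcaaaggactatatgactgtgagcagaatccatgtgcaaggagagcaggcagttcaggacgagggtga
Tnfrsf4, chr4:156013445-156013744: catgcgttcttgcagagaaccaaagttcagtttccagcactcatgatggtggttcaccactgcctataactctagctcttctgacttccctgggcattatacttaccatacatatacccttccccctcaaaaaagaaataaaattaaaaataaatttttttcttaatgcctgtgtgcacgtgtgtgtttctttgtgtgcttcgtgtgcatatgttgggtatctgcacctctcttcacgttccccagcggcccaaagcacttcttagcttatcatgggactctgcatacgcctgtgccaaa
Tnfrsf18, chr4:156026072-156026371: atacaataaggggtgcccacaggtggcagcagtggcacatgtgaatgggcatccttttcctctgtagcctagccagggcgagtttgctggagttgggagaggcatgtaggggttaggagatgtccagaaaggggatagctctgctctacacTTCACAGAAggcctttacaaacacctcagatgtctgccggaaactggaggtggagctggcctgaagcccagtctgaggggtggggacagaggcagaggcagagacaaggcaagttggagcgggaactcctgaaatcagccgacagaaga
Tnfrsf9, chr4:150927749-150928048: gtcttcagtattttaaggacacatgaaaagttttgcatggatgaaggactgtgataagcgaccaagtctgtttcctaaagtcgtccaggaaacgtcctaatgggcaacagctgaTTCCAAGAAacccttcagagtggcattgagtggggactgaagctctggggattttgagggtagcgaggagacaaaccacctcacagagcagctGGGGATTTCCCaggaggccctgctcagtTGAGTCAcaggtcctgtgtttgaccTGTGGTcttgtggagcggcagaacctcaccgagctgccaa

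The window of Tnfrsf9 held the letters of all 4 motifs: an overlapping pair of NF-kB matches from -43 and -42, AP-1 letters from -15, STAT letters from -136, and RUNX letters from 11, counted in bases from the start. The other RefSeq start of Tnfrsf9 and the window of Tnfrsf4 held none of the 4. Tnfrsf18 held the STAT letters from -99. Of the Foxp3 windows, the first held 1 NF-kB match from 17, and the second the STAT letters from -139. Il2ra and Ccr8 each held an overlapping pair of NF-kB matches. Over the 32851 mouse promoters of the same length, 50.8% held the NF-kB letters, 7.81% the AP-1 letters, 8.3% the STAT letters, and 16.8% the RUNX letters, so a match is a description of letters only.

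The totals of expected counts were 33237744 to 48481461, and 3 counts corresponded to 0.0619 to 0.0903 CPM. T cells were detected in every tumor, with a summed level of 10 T cell markers of 19.0 to 45.5 TPM (a level per length) in control IgG tumors, 44.8 to 85.2 TPM in responders, and 17.5 to 28.7 TPM in non-responders. Tumor 33R differed most from its group, with a chi-square per gene of 124.4 to 181.1 against the other non-responders, and had the longest mean fragment, 287.83 bases. Fragments were 269.46 to 277.04 bases in responders and 277.49 to 287.83 in non-responders, and the part of fragment length in the results below was not tested. All 5 erythroid markers were lower in responders than in non-responders, with a sum of 217 to 1015 TPM against 1311 to 6576. In bulk tumors, fewer cells of a type and less RNA per cell cannot be told apart.

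Responders were first compared with non-responders, to ask how the 10 genes differed between tumors that did and did not respond to the same antibody. Foxp3, Icos, and Tnfrsf4 passed edgeR's quasi-likelihood test with higher values in responders (Benjamini-Hochberg adjusted p under 0.05 over all genes), and none passed with lower values. Of all genes tested, 5.08% were called higher. The median log2 fold change of the 10 members was 0.81, against 0.0062 over all genes. Unadjusted p-values were under 0.05 for 9 members and for 27.8% of all genes. In 4 members (Foxp3, Tnfrsf4, Icos, and Cd28) every responder was above every non-responder in CPM, which 6.8% of all genes also showed. These calls rested on few tumors. Without the responder 24L, or without the non-responder 32R, none of the 10 was called by edgeR at that threshold, and without 33R only Tnfrsf4 was. The calls over all genes fell too: 341 of 16160 were higher without 24L, 349 of 16508 without 32R, and 506 of 16521 without 33R. With all tumors, 827 of 16287 were. The log2 fold changes of Foxp3, Icos, and Tnfrsf4 stayed positive in each of those omissions.

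Against control IgG tumors, responders were higher in Foxp3, Icos, Il10, Tnfrsf18, and Tnfrsf4 (edgeR, adjusted p under 0.05), 5 of the 10 members, where 7.88% of all genes tested were called higher. The median log2 fold change of the members was 0.72, against -0.011 over all genes. In 3 members (Foxp3, Tnfrsf4, and Il10) every responder was above every control IgG tumor, as in 8.34% of all genes. Without 24L, 16R, or 20R the calls were Foxp3 and Tnfrsf4, and without 30L or 30R they were Foxp3, Il10, and Tnfrsf4. Without 35L, Il10 was lost (edgeR adjusted p = 0.0726) and Il2ra was gained (0.0410). Without 14L, Ikzf2 was gained (edgeR adjusted p = 0.0240). Over all genes, 1284 of 16287 were called higher with all tumors. Without 24L, 16R, and 20R these were 748 of 16160, 982 of 16245, and 751 of 16220. Without 30L and 30R they were 1022 of 16249 and 890 of 16171, and without 35L and 14L they were 1182 of 16214 and 1180 of 16224. Both comparisons use the same 5 responders.

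Non-responders and control IgG tumors did not differ in any member under edgeR, with 0 of 10 called and a lowest adjusted p of 0.931. Over all genes tested this comparison called 0, which is 0% of them. At an unadjusted p under 0.05 there was 1 member, Ccr8, and 758 of 16287 genes. DESeq2 and limma-voom also called 0 members, while over all genes DESeq2 called 16 and limma-voom 0. The intervals were wide: the difference in Foxp3 was 0.22 on the log2 scale with a 95% interval from -0.47 to 0.92.

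**Figure D1:**
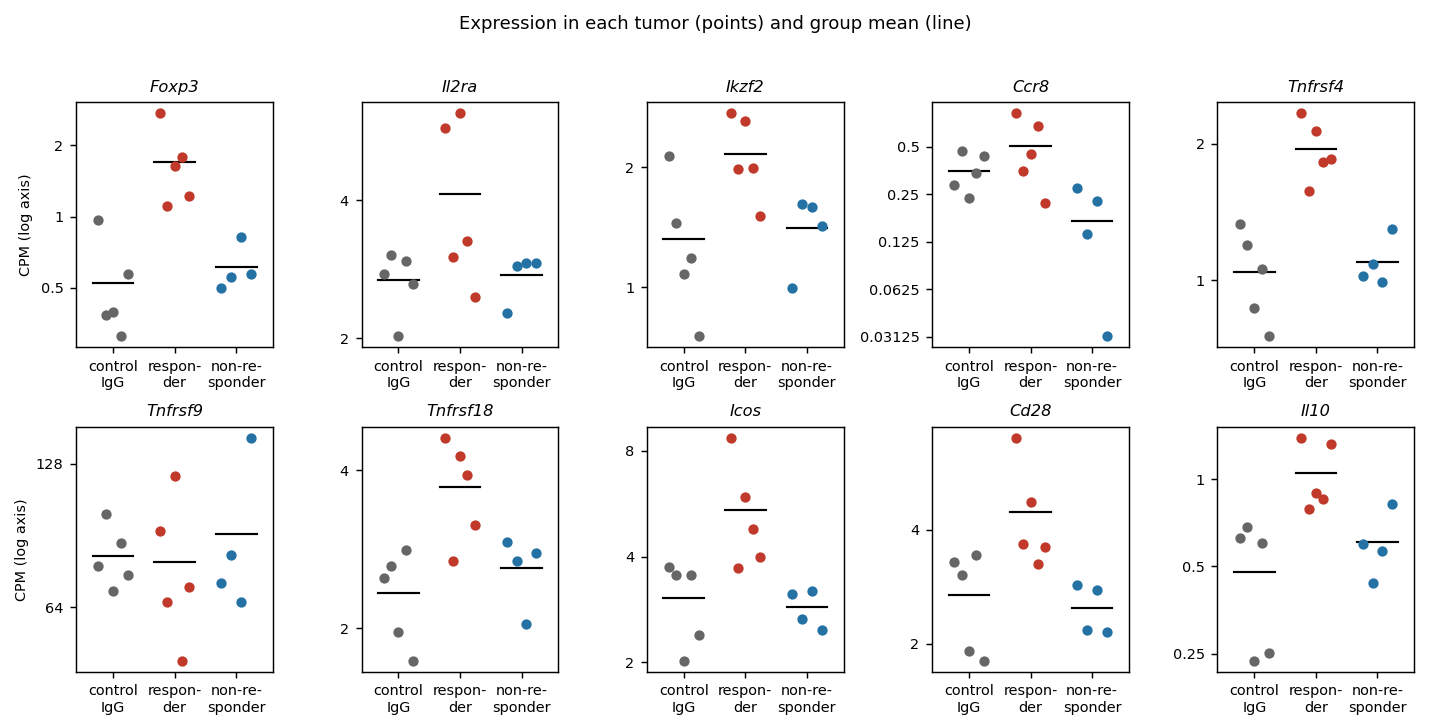
CPM of each of the 10 members in each tumor on a log2 axis, as points by group (5 control IgG, 5 responder, 4 non-responder tumors), with a line at the group mean. Foxp3, Tnfrsf4, Icos, and Cd28 show all responders above all non-responders, while the 3 groups of Tnfrsf9 overlap between 49.4 and 144.8 CPM.

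Foxp3 was at 0.966, 0.384, 0.394, 0.313, and 0.571 CPM in the control IgG tumors 14L, 14R, 16R, 17R, and 20R. It was at 2.73, 1.11, 1.64, 1.79, and 1.22 CPM in the responders 24L, 26R, 30L, 30R, and 35L. In the non-responders 29L, 32R, 33L, and 33R it was at 0.498, 0.556, 0.821, and 0.570 CPM. All 5 responders were above all 9 other tumors, and the control IgG tumor 14L came nearest to them. The share of all genes with responders above both other groups at once was not computed. The level was 2.77-fold higher in responders than in non-responders (log2 fold change 1.47, with a standard error, SE, of 0.35, edgeR adjusted p = 0.0224). Against control IgG tumors it was 3.24-fold higher (log2 fold change 1.70, SE 0.33, edgeR adjusted p = 0.00485). The expected counts behind these values were 38 to 118 per responder tumor, 18 to 29 per non-responder tumor, and 13 to 34 per control IgG tumor. Leaving out 24L, 32R, or 33R took the adjusted p of edgeR against non-responders to 0.0601, 0.0602, and 0.0529, with log2 fold changes of 1.24, 1.43, and 1.46.

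Il2ra, the alpha chain that raises the affinity of the IL-2 receptor, was at 2.75, 3.03, 2.02, 2.94, and 2.63 CPM in control IgG tumors in the same order. Responders were at 5.76, 3.002, 6.18, 3.26, and 2.46 CPM, and non-responders at 2.27, 2.87, 2.92, and 2.91. Responders 24L and 30L were well above all other tumors, 30R was just above the other groups, and 26R and 35L were within the range of the control IgG tumors. The log2 fold changes were 0.59 against non-responders (SE 0.26, edgeR adjusted p = 0.148) and 0.63 against control IgG tumors (SE 0.24, edgeR adjusted p = 0.0997).

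Ikzf2 (Helios), a transcription factor of many thymus-derived regulatory T cells, was at 2.13, 1.45, 1.08, 1.18, and 0.754 CPM in control IgG tumors. It was at 2.73, 1.98, 2.62, 1.99, and 1.504 CPM in responders and at 0.997, 1.62, 1.59, and 1.43 CPM in non-responders. In CPM, only the responder 35L was within the range of the non-responders, and control IgG tumor 14L within that of the responders. In TPM, the responders 26R (0.27), 30R (0.3), and 35L (0.23) were within the non-responder range of 0.15 to 0.32. The log2 fold changes were 0.62 (SE 0.28, edgeR adjusted p = 0.167) and 0.72 (SE 0.26, edgeR adjusted p = 0.0869) against non-responders and control IgG tumors. With an offset for gene length, the value against non-responders was 0.33 (edgeR adjusted p = 0.524).

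Ccr8 had the fewest counts, 1 to 35 per tumor. Levels were 0.284, 0.470, 0.236, 0.338, and 0.434 CPM in control IgG tumors, 0.809, 0.350, 0.449, 0.675, and 0.218 CPM in responders, and 0.274, 0.139, 0.227, and 0.0317 CPM in non-responders. The value of 33R was 1 count and below the 3-count floor. Responder 35L was among the low tumors, so the groups overlapped. The log2 fold change against non-responders, 1.54, was numerically the largest of the 10, with the largest SE, 0.48 (edgeR adjusted p = 0.0560). The value against control IgG tumors was 0.50 (SE 0.42, edgeR adjusted p = 0.474). Non-responders were at a log2 fold change of -1.04 against control IgG tumors (SE 0.49, edgeR adjusted p = 0.931). DESeq2 called Ccr8 between responders and non-responders (adjusted p = 0.0242). On simulated counts of this comparison, 16.2% of the calls of DESeq2 were false, against 5.1% for edgeR. The genes changed in that simulation were drawn above a minimum mean level that Ccr8 did not reach, and its tumors were independent. DESeq2 was given 16287 genes there and 27306 in the fit of the tumors, so these rates do not decide the call of Ccr8.

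Il10 encodes an inhibitory cytokine that regulatory T cells, macrophages, and B cells can make. It was at 0.625, 0.683, 0.236, 0.603, and 0.251 CPM in control IgG tumors, 1.39, 0.787, 0.898, 0.854, and 1.33 CPM in responders, and 0.598, 0.440, 0.567, and 0.824 CPM in non-responders. Responders were all above control IgG tumors, and 33R alone among non-responders was within their range. Il10 was 2.19-fold higher than in control IgG tumors (log2 fold change 1.13, SE 0.32, edgeR adjusted p = 0.0337). Against non-responders the log2 fold change was 0.80 (SE 0.34, edgeR adjusted p = 0.147).

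Among the TNF receptors, Tnfrsf4 separated responders from both other groups. It was at 1.33, 1.196, 0.867, 1.06, and 0.754 CPM in control IgG tumors, 2.34, 1.57, 2.14, 1.83, and 1.85 CPM in responders, and 1.02, 1.09, 0.991, and 1.30 CPM in non-responders. The lowest responder, 26R, was above the highest tumor of the others, the control IgG tumor 14L. How many of all genes separate responders from both groups in this way was not computed. The level was 1.77-fold higher than in non-responders (log2 fold change 0.82, SE 0.20, edgeR adjusted p = 0.0243) and 1.87-fold higher than in control IgG tumors (log2 fold change 0.90, SE 0.19, edgeR adjusted p = 0.00709). Tnfrsf4 was called against non-responders in each of the 10 other analyses of all tumors that were run, but in 7 of the 9 in which a tumor of those groups was left out, since the adjusted p was 0.0659 without 24L and 0.0597 without 32R under edgeR.

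Tnfrsf18, the neighbour of Tnfrsf4, was at 2.499, 2.63, 1.97, 2.82, and 1.74 CPM in control IgG tumors, 4.60, 2.68, 4.25, 3.91, and 3.14 CPM in responders, and 2.91, 2.69, 2.04, and 2.79 CPM in non-responders. Responder 26R was within the range of both other groups, and the other 4 responders were above all tumors of both. It was higher than in control IgG tumors (1.60-fold, log2 fold change 0.67, SE 0.19, edgeR adjusted p = 0.0279). Against non-responders the log2 fold change was 0.51 (SE 0.20, edgeR adjusted p = 0.109).

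Tnfrsf9 was apart from the other members in level, and its groups did not separate. It was at 78.2, 100.5, 69.1, 87.4, and 74.6 CPM in control IgG tumors, 92.6, 65.6, 120.6, 49.4, and 70.6 CPM in responders, and 72.0, 82.2, 65.7, and 144.8 CPM in non-responders. The highest and lowest tumors were a non-responder, 33R, and a responder, 30R, so the groups overlapped throughout. The log2 fold change was -0.19 against non-responders (SE 0.25, edgeR adjusted p = 0.660), with a 95% interval from -0.69 to 0.30. Against control IgG tumors it was -0.04 (SE 0.24, edgeR adjusted p = 0.937), with an interval from -0.51 to 0.43. Without 33R, the tumor that differed most from its group, the difference from non-responders was 0.13, of the opposite sign and not called. Left and right tumors of a mouse also differed: 120.6 against 49.4 CPM for 30L and 30R, and 65.7 against 144.8 CPM for 33L and 33R.

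Icos, which is induced on activated and regulatory T cells, was at 3.75, 3.54, 2.02, 3.54, and 2.40 CPM in control IgG tumors, 8.70, 3.70, 5.92, 4.81, and 3.99 CPM in responders, and 3.14, 2.66, 3.20, and 2.47 CPM in non-responders. Responders did not overlap with non-responders, while 26R was just under the control IgG tumor 14L. Icos was 1.89-fold higher than in non-responders (log2 fold change 0.92, SE 0.26, edgeR adjusted p = 0.0381) and 1.78-fold higher than in control IgG tumors (log2 fold change 0.83, SE 0.24, edgeR adjusted p = 0.0336). The call against non-responders was lost with limma-voom (adjusted p = 0.0536), when only these groups were fitted (edgeR adjusted p = 0.0624), when the tumors of a mouse were summed (edgeR adjusted p = 0.0711), and without 24L, 30L, 30R, 32R, or 33R (edgeR adjusted p from 0.0645 to 0.0953).

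Cd28, the receptor for Cd80 and Cd86 on most T cells, was at 3.29, 3.03, 1.92, 3.42, and 1.81 CPM in control IgG tumors, 6.98, 3.67, 4.73, 3.26, and 3.60 CPM in responders, and 2.86, 2.18, 2.78, and 2.15 CPM in non-responders. All responders were above all non-responders. The log2 fold change was 0.83 (SE 0.26), and edgeR's adjusted p of 0.0541 did not pass, while DESeq2's did (0.0153). The log2 fold change against control IgG tumors was 0.72 (SE 0.24, edgeR adjusted p = 0.0604).

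Responder 24L was the highest of all 14 tumors for 8 of the 10 members, the exceptions being Il2ra (30L) and Tnfrsf9 (33R). Both 24L and 30L were among the highest 3 tumors for 9 members. The control IgG tumor 16R was among the lowest 3 for 8 members and 20R for 6. After subtraction of group means over the 14 tumors, log2 CPM of Cd28 and Icos correlated at r = 0.92, Il10 and Tnfrsf4 at 0.80, and the neighbours Tnfrsf4 and Tnfrsf18 at 0.79, and Tnfrsf9 with the other members from -0.355 (Ccr8) to 0.65 (Il2ra), with 0.61 for Tnfrsf4 and -0.01 for Foxp3. These values are descriptions over tumors that, in 3 pairs, share a mouse.

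**Figure D2:**
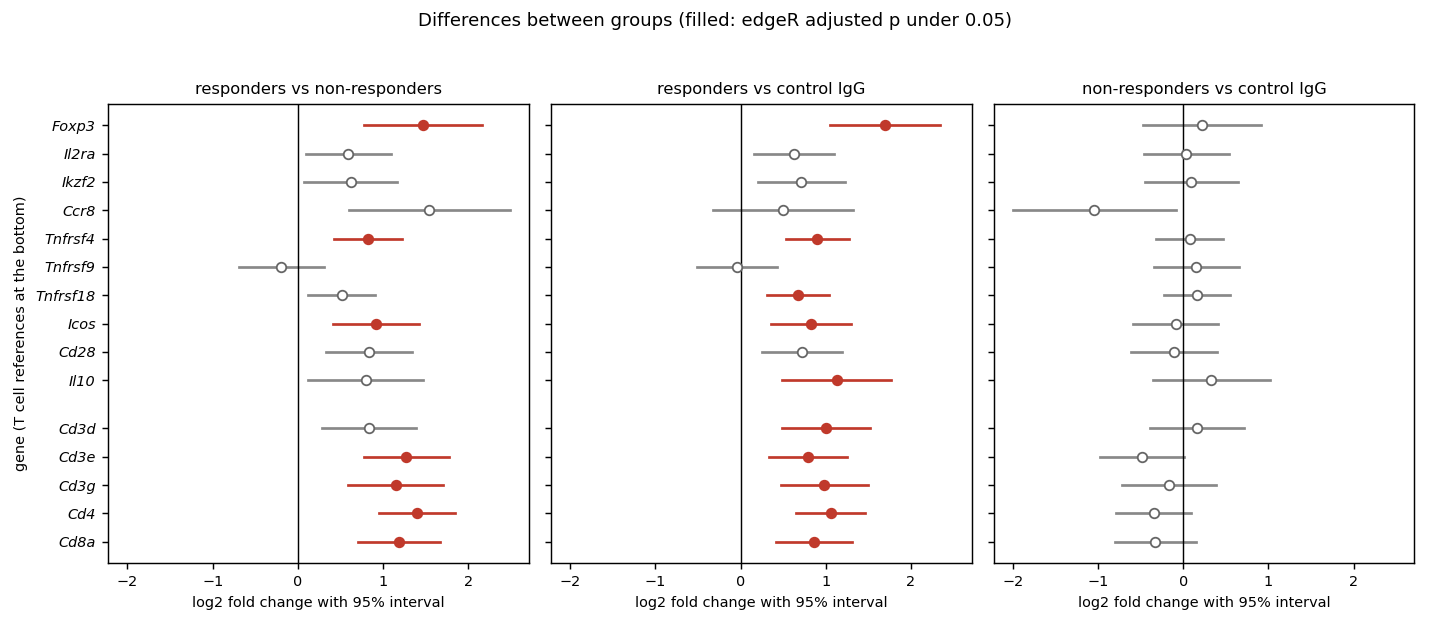
Log2 fold change (x axis, point) with its 95% interval (line) of the 10 members and 5 T cell references (y axis) in the 3 comparisons, with filled points for an edgeR adjusted p under 0.05. Foxp3 was at 1.47 and 1.70 in the comparisons with responders, Tnfrsf9 was near 0 in all 3, and no gene was called between non-responders and control IgG tumors.

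The T cell references gave the scale for these differences. Against non-responders, the log2 fold changes were 1.27 for Cd3e (SE 0.26, edgeR adjusted p = 0.0123), 1.15 for Cd3g (SE 0.28, edgeR adjusted p = 0.0247), and 0.83 for Cd3d (SE 0.28, edgeR adjusted p = 0.0724). Cd4 was at 1.402 (SE 0.23, edgeR adjusted p = 0.00628) and Cd8a at 1.19 (SE 0.25, edgeR adjusted p = 0.0137). Thus, against non-responders, Foxp3 and Ccr8 had log2 fold changes above those of all 5 references, and the other 8 members had values under that of Cd8a. The value of Ccr8 was 1.25 without 33R, where it had 1 count. Against control IgG tumors, the references were at 0.79 (Cd3e) to 1.06 (Cd4). Foxp3 (1.70) and Il10 (1.13) were above all 5 there, and Ccr8 (0.50) was under all 5. Foxp3 was tested against the Cd3 genes and Cd8a as ratios of log2 CPM, given below, and no adjusted p of the exact permutation tests was under 0.05. The other differences between genes were not tested.

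Foxp3 was next set against the T cell transcripts of the same tumor, as the difference in log2 CPM between Foxp3 and the mean of Cd3d, Cd3e, and Cd3g, the genes for chains of the T cell receptor complex. This difference was -2.15, -3.06, -2.16, -3.30, and -1.93 in control IgG tumors, -1.66, -1.90, -1.67, -1.66, and -2.22 in responders, and -2.42, -2.42, -1.45, and -2.19 in non-responders. Responders were within the range of non-responders, and 33L was the highest tumor of all. The means differed by 0.30 between responders and non-responders (1.23-fold, exact permutation of tumors between groups, two-sided, p = 0.238, adjusted p = 0.357 over the 6 ratio tests). Between responders and control IgG tumors they differed by 0.70 (1.62-fold, exact permutation p = 0.0476, adjusted p = 0.143), and between non-responders and control IgG tumors by 0.40 (exact permutation p = 0.310, adjusted p = 0.371). Thus the rise of Foxp3 against non-responders was not shown to exceed that of the Cd3 genes.

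Relative to Cd8a, which marks CD8 T cells, Foxp3 gave mean log2 differences of -3.52 in responders, -3.71 in non-responders, and -4.27 in the control group. Responders and non-responders differed by 0.19 (exact permutation p = 0.460, adjusted p = 0.460). Responders and control IgG tumors differed by 0.75 (exact permutation p = 0.0238, adjusted p = 0.143), and non-responders and control IgG tumors by 0.55 (exact permutation p = 0.159, adjusted p = 0.317). The smallest p that 5 against 4 tumors allow is 0.00794, and 0.00397 for 5 against 5. On the log2(TPM + 1) scale, which understates differences of a gene as low as Foxp3, the difference between responders and non-responders turned to -0.58 relative to Cd3 and -0.78 relative to Cd8a (both adjusted p = 0.0238, exact permutation). Over the 14 tumors, Foxp3 was at 0.11 to 1.02 TPM, Cd3g at 4.28 to 28.52, and Cd8a at 2.39 to 13.95. The added 1 shrinks Foxp3 more than these references, so the sign and p on this scale do not decide the ratio. The permutations also took tumors of the same mouse as independent.

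**Figure D3:**
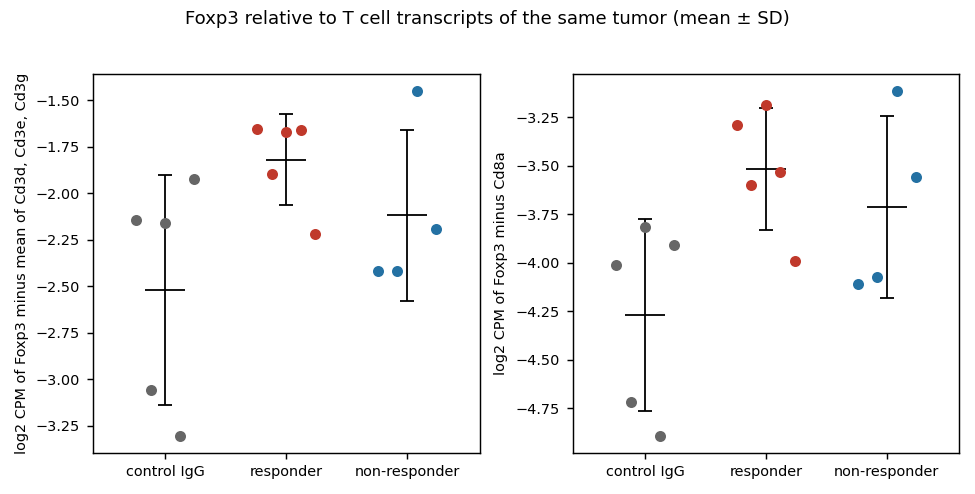
Log2 CPM of Foxp3 minus the mean of Cd3d, Cd3e, and Cd3g (left) or minus Cd8a (right) on the y axis, by group, with each tumor as a point and the mean ± SD. The 3 groups overlap in both panels, and the responder means lie 0.70 and 0.75 above those of the control IgG tumors.

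Of the other members, Tnfrsf9 and Tnfrsf18 were lower relative to Cd3 in every responder than in every non-responder, by -1.24 and -0.57 on the log2 scale. Relative to Cd8a the groups of both genes overlapped, with differences of -1.35 and -0.67. The Cd3 genes were themselves 0.83 to 1.27 higher in responders, against a median of 0.0062 over all genes. A gene without a difference is thus also lower relative to Cd3, and the share of all genes separated in this way was not computed. For the remaining 7, the groups overlapped relative to Cd3, and the differences were from -0.56 for Il2ra to 0.34 for Ccr8. These ratios other than those of Foxp3 were not tested.

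Per length, the members covered a wide range. Tnfrsf9 was at 89.4 TPM on average over the 14 tumors (range 69.0 to 137.8), above 90.9% of the genes tested and 22.8 times the mean TPM of Tnfrsf18. No other member reached its lowest tumor. Tnfrsf18 followed at 3.92 TPM (2.18 to 6.73), Tnfrsf4 at 2.29 TPM (1.23 to 3.96), and Icos at 1.63 TPM (0.81 to 3.78). Il2ra at 0.963, Cd28 at 0.962, and Il10 at 0.824 TPM had ranges that overlapped almost fully and gave no order. Ccr8 at 0.474, Foxp3 at 0.341, and Ikzf2 at 0.281 TPM were the lowest. Foxp3 and Ikzf2 had no fixed order, since the mean of Foxp3 was above that of Ikzf2 in responders (0.624 against 0.334 TPM) and below it in control IgG tumors (0.178 against 0.240 TPM) and non-responders (0.193 against 0.268 TPM). Cd3g was at 11.2, Cd8a at 6.24, and Cd4 at 1.48 TPM on the same scale.

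Tnfrsf9 exceeded the summed TPM of all 10 T cell markers in 13 of 14 tumors. The exception was the responder 30R, with 69.0 TPM of Tnfrsf9 against 72.2 TPM of the markers, and the ratio ranged from 0.956 to 6.21. The highest ratio was in 33R, the tumor with the lowest T cell marker sum. Which cells of the tumor held the Tnfrsf9 transcripts was not measured in these libraries.

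**Figure D4:**
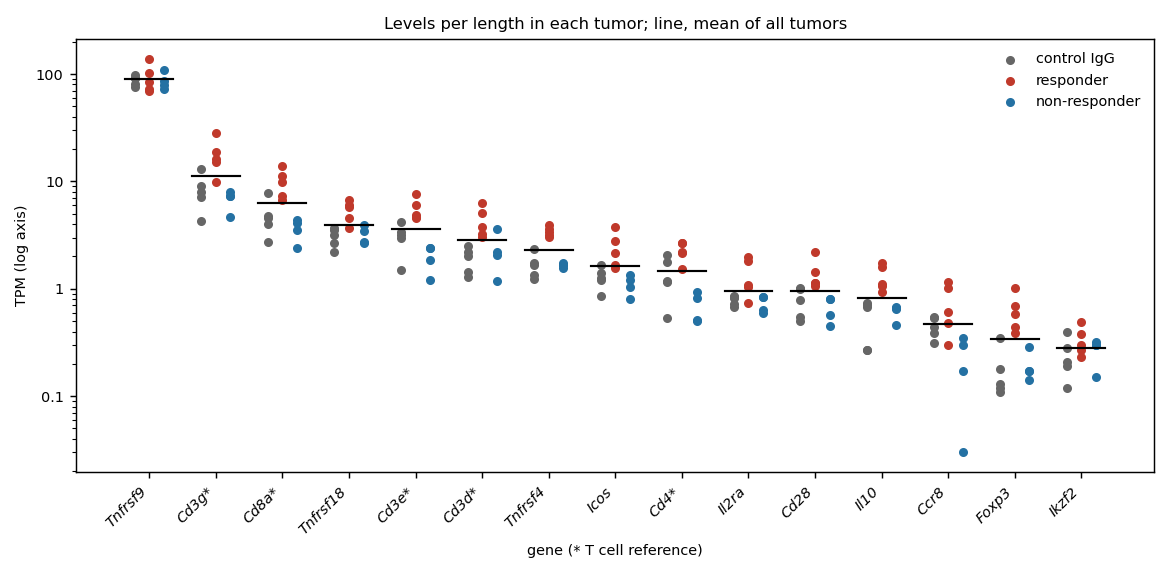
TPM on a log axis of the 10 members and 5 T cell references (starred), in order of mean level, with each tumor as a point by group and a line at the mean of the 14 tumors. Tnfrsf9, at 69.0 to 137.8 TPM, lies above every other gene shown, and Ikzf2 and Foxp3 are the lowest.

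The partners of the members were described by 7 lists. For the counts called in these lists, the share of all genes tested that were called higher was 5.08% against non-responders and 7.88% against control IgG tumors. Of 9 ligand genes, 7 were tested, and none differed between responders and non-responders under edgeR. Ccl8, a ligand of Ccr8, was higher in responders than in control IgG tumors (213.0 against 118.8 CPM, log2 fold change 0.84, SE 0.25, edgeR adjusted p = 0.0381). The other ligands are given here as the partners of the members, with their values already seen. Cd86 was at 18.1 CPM in responders and 12.6 in non-responders (log2 fold change 0.52, edgeR adjusted p = 0.0639), and Icosl at 7.05 and 5.597 CPM (log2 fold change 0.33, edgeR adjusted p = 0.0976). Cd80 was at 18.2 CPM in responders and 15.9 in non-responders (log2 fold change 0.19, edgeR adjusted p = 0.292). Tnfsf9, the ligand of Tnfrsf9, was at 7.76 CPM in responders, at 9.93 in non-responders, and at 11.97 in control IgG tumors (log2 fold change against control IgG tumors -0.63, edgeR adjusted p = 0.0815). Group means of Tnfsf4 and Tnfsf18 were 0.300 to 0.513 CPM, and Il2 and Ccl1 had too few counts to be tested.

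Of 16 other regulatory T cell genes tested, 2 were higher in responders than in non-responders and 8 higher than in control IgG tumors, and none was called lower in either comparison. Itgae, an integrin chain of tissue-resident lymphocytes, was at 3.56 against 1.89 CPM (log2 fold change 0.91, SE 0.17, edgeR adjusted p = 0.00828). Entpd1 (CD39), an ectonucleotidase also found on myeloid and endothelial cells, was at 56.6 against 38.0 CPM (log2 fold change 0.57, SE 0.12, edgeR adjusted p = 0.0150). Izumo1r, a folate receptor family member of regulatory T cells, and Nt5e (CD73), an ectonucleotidase, had log2 fold changes of 1.32 and 0.18 against non-responders (edgeR adjusted p = 0.0617 and 0.339) and were called against control IgG tumors at 1.55 and 0.43 (edgeR adjusted p = 0.0199 and 0.0211). Ctla4, which lies between Cd28 and Icos and is given for that position after its values were seen, was at 3.43 ± 1.12 CPM (SD, n = 5) among responders and 3.14 ± 0.83 CPM (SD, n = 4) among non-responders. The control IgG value was 2.96 ± 0.82 CPM (SD, n = 5). Ctla4 differed between responders and non-responders by 0.13 on the log2 scale (SE 0.26, edgeR adjusted p = 0.790). Klrg1, Il1rl1, and Lrrc32, also given after their values were seen, were not called against non-responders. Klrg1 was at 4.75 CPM in responders and 7.51 in non-responders (log2 fold change -0.66, edgeR adjusted p = 0.233). The log2 fold changes of Il1rl1 and Lrrc32 were 0.12 and 0.19, and the median of the 16 genes was 0.40.

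Of 23 other TNF receptors tested, 4 were higher and 1 lower in responders than in non-responders. Cd27, a costimulatory receptor of T cells, was at 3.99 against 1.35 CPM (log2 fold change 1.56, SE 0.26, edgeR adjusted p = 0.00666). Tnfrsf1b, the TNF receptor that regulatory T cells and myeloid cells carry, was at 122.5 against 84.4 CPM (log2 fold change 0.54, edgeR adjusted p = 0.0143), and Tnfrsf14 (HVEM) at 8.73 against 5.15 CPM (log2 fold change 0.76, edgeR adjusted p = 0.0175). Fas, named after its values were seen as the fifth gene called, differed by 0.75 on the log2 scale (edgeR adjusted p = 0.0332). Tnfrsf12a, the TWEAK receptor of epithelial and mesenchymal cells, fell by 0.94 on the log2 scale, from 315.9 CPM in non-responders to 164.1 in responders (SE 0.17, edgeR adjusted p = 0.00793). Against control IgG tumors, 6 of the 23 were higher and 2 lower.

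In the pathways downstream, 2 of 15 genes of the TRAF and NF-kB list were higher in responders than in non-responders, namely Traf1, an adaptor of Tnfrsf4 and Tnfrsf9 (39.5 against 26.1 CPM, log2 fold change 0.60, edgeR adjusted p = 0.0139), and Tnfaip3 (A20), an inhibitor of NF-kB (40.2 against 25.9 CPM, log2 fold change 0.63, edgeR adjusted p = 0.0342). Of 9 IL-2 receptor partners and signaling genes, 5 were higher: Il2rb and Il2rg, the chains that pair with Il2ra (log2 fold changes 0.77 and 0.56), the kinase Jak1 (0.38), the transcription factor Stat5a (0.48), and the feedback gene Cish (0.80), the fifth of them, named after its values were seen. Il10ra and Tyk2, a receptor chain and a kinase of the IL-10 pathway, were the 2 called of 6 (log2 fold changes 0.74 and 0.40). Of 13 genes of CD28 and ICOS signaling, 9 were higher, among them the kinases Zap70 (log2 fold change 0.84) and Fyn (0.42), and the PI3-kinase subunit Pik3cd (0.69). The medians of the 7 lists were between 0.19 and 0.50, against 0.81 for the members and 0.0062 for all genes. Against control IgG tumors, 1 of 7 ligands, 1 TRAF, 3 IL-2, 2 IL-10, and 8 CD28 and ICOS genes were higher, and in the comparison of non-responders with control IgG tumors edgeR called none of any list.

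**Figure D5:**
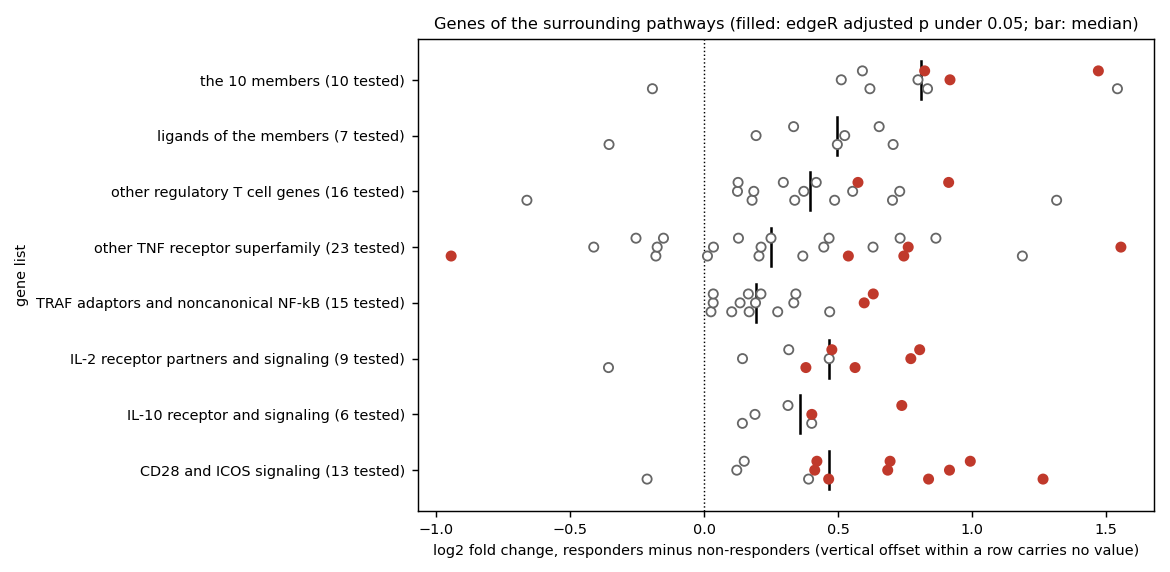
Log2 fold change between responders and non-responders (x axis) of the 10 members and of each tested gene of 7 lists (rows), with filled points for an edgeR adjusted p under 0.05 and a bar at the median. The CD28 and ICOS signaling list has 9 filled points of 13 and the ligand list none, and Tnfrsf12a is the single filled point under 0.

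Markers of several cell types were called in the same comparison, where 5.08% of all genes tested were called higher. Between responders and non-responders, 8 of 9 T cell markers tested were higher, as were both CD8 T cell markers, 3 of 5 markers of conventional dendritic cells, and 3 of 5 of mature dendritic cells. Single markers were called for B cells (1 of 4 tested), macrophages (1 of 7), neutrophils (1 of 5), and fibroblasts (1 of 6). The median log2 fold changes of the macrophage and fibroblast markers were 0.26 and 0.16. The called neutrophil marker was Csf3r (log2 fold change 0.85), while the median of the 5 neutrophil markers was -0.64 and their sum was 33.7 to 133.3 TPM in responders against 77.9 to 198.2 TPM in non-responders. No NK cell, mast cell, endothelial, skin, or muscle marker was called under edgeR, although 4 of 4 NK cell markers tested were higher in responders than in control IgG tumors. Summed over the 14 tumors, Klra8 of the NK cell list had under 3 counts, and every other marker of these lists had more. Their part in the differences of the members was not tested.

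By the pattern over the 14 tumors after subtraction of group means, the 5 genes most like Foxp3 among 13265 genes were Slc37a2 (Pearson r = 0.88), 4833420G17Rik (0.84), Sesn3 (0.82), Gm9917 (0.81), and Armcx1 (0.81). Without the 2 tumors farthest from the median of Foxp3, these values were 0.57 to 0.80. None of the 5 was another member. The closest member was Ikzf2 at 0.56, followed by Icos at 0.55, and Cd3g was at 0.67. For Tnfrsf9, looked up after its values were seen, the closest genes were Bnip3 (0.96), Higd1a (0.96), Gla (0.95), Fam162a (0.95), and Gzmb (0.93), and the values without the 2 farthest tumors were 0.86 to 0.94. Bnip3, Higd1a, and Fam162a encode mitochondrial proteins, Gla a lysosomal enzyme, and Gzmb the cytotoxic protease granzyme B. Icos had its closest gene in Gbp4, an interferon-induced GTPase (0.97), and Tnfrsf4 in the MHC class I gene H2-T10 (0.94).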

How the data were processed

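The 14 CT26 tumors were grouped as the sample labels give it, into 5 control IgG, 5 responder, and 4 non-responder tumors. Reads were aligned to mm10 with STAR and quantified per gene with RSEM, per the submitters' processing notes, and the strand setting is not given in the sources used here. Expected counts, as deposited, estimate the fragments of each gene, share out fragments that match several genes, and carry no normalization. TPM, as deposited, are those estimates per effective gene length, scaled to a common total. The FPKM values that the authors deposited were not used. Depth was 33237744 to 48481461 expected counts per tumor, and floors of 3 counts cover counting error only.

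Rounded expected counts went into edgeR 4.0.16 under R 4.3.3 with TMM factors, filterByExpr, and the quasi-likelihood test, all 14 tumors in 1 fit without covariates, and Benjamini-Hochberg adjustment over 16287 genes. CPM are scaled by the library total and TMM factor, and log2 CPM used a prior count of 2. Symbols and positions came from GENCODE vM21, which matched 53620 of 53801 genes. For the Foxp3 ratios, exact permutation tests over tumors were two-sided and adjusted over 6 tests. Intervals of 95% are the log2 fold change and its standard error under a normal distribution (scipy 1.17.1). Tumors of the same mouse were recognised by their numbers. Nothing else says that tumors of a group were independent, so p-values measure the spread between these tumors. Every pair of libraries within a group differed beyond sampling noise (lowest chi-square per gene, 19.78), and pairs across groups were not compared.

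The members, the lists, and the tests were chosen with earlier results of these data known. The genes named are the 10 members, the Cd3 genes, Cd4, and Cd8a, up to 4 called genes per pathway list by smallest p (responders against non-responders first), and the 5 genes most like Foxp3, with exceptions stated, and 1 gene that this rule gives is not reported here. Alternatives were DESeq2 1.42.0 and its size factors, limma-voom (limma 3.58.1) without or with a random effect of mouse, other filters on low counts, the compared groups alone, the tumors of a mouse summed or averaged, an offset for gene length (loess span 0.5), log2(TPM + 1), and omission of each tumor. On simulated counts for responders and non-responders with 200 of 16095 genes changed, edgeR recovered 93% with 5.1% of its calls false, and DESeq2 (16287 genes) 95.5% with 16.2% false. The changed genes were drawn above a minimum mean level, and the simulated tumors were independent.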

Additional observations from a re-analysis of the deposited data

Results flagged for a closer look

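Of 30 groups (10 members in 3 groups of tumors), 1 held a tumor that stood apart from the rest of its group by the gap to its nearest neighbour, and chance gives about 1 in 20. Il2ra was at 2.27 CPM in the non-responder 29L, against 2.87, 2.91, and 2.92 CPM in 32R, 33R, and 33L, so that the gap was 0.938 of the range of the group (limit for 4 tumors, 0.829). The level of 29L was within the range of the control IgG tumors, and its part in the comparison of Il2ra was not tested beyond the omission of each tumor, under which Il2ra was not called between responders and non-responders (edgeR adjusted p of 0.0734 to 0.322).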

How the results depend on the processing

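The number of members called between responders and non-responders, 3 under edgeR, was 2 (Foxp3 and Tnfrsf4) with limma-voom, with the compared groups alone, and with the tumors of a mouse summed. It was 5 with DESeq2, 5 with limma-voom when mouse was a random effect, and 7 on log2(TPM + 1), where the median of all genes was itself 0.169 above 0. Over all genes, those called higher were 827 of 16287 under edgeR, 832 of 16287 with limma-voom, 487 of 15888 with the compared groups alone, and 766 of 16463 with tumors summed. They were 1255 of 27306 with DESeq2, 1483 of 16287 with the random effect, and 2047 of 16287 on log2(TPM + 1). The calls gained with the random effect, Cd28 and Ccr8 (adjusted p = 0.0408 and 0.0234), were not made by edgeR with the tumors of a mouse summed (adjusted p = 0.0817 and 0.0696). The number of members called was from 0 to 4 as each tumor was left out (0 without 24L or 32R, 1 without 33R). Over all genes, those called higher then ranged from 341 (without 24L) to 923 (without 29L). Between responders and control IgG tumors, the 5 called were 7 with DESeq2 (also Cd28 and Ikzf2, adjusted p = 0.0255 and 0.0468), 3 without a filter on low counts and 3 of 7 tested at a mean CPM of at least 1, a filter that removes Foxp3, Il10, and Ccr8, and from 2 to 6 as each tumor was left out. Over all genes, those called higher in responders than in control IgG tumors were 1284 of 16287 under edgeR and 1669 of 27306 with DESeq2. They were 1079 of 27325 without a filter, 1298 of 13358 at a mean CPM of at least 1, and from 748 to 1241 as each tumor was left out. Between non-responders and control IgG tumors, no member was called under any alternative. The Foxp3 ratios kept their direction under the omission of each tumor, and on log2(TPM + 1) the difference between responders and non-responders turned to -0.58 relative to Cd3 and -0.78 relative to Cd8a. The causes were not tested. The log2(TPM + 1) scale carries its own pseudocount of 1, above the TPM of Foxp3 in every tumor except 24L (1.02 TPM). That pseudocount was below the TPM of each Cd3 gene and of Cd8a in every tumor. No called member changed direction. The correlation between tumors of a mouse, estimated across genes, was negative (-0.282). No paired analysis was possible because the groups share no replicate numbers. Depth limits Ccr8 most, at 1 to 35 counts per tumor.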
